A study of Mus musculus with 16 samples.

Results

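The genes described here are 10 genes of the osteoblast lineage and of the bone matrix: Sp7, Runx2, Alpl, Ibsp, Spp1, Postn, Sparc, Dmp1, Phex and Mepe. They were found by gene name among the non-control spots of the arrays, which gave 10 of the array's 34650 gene names and 15 of its 55681 probes: 3 for Runx2, 3 for Sparc, 2 for Ibsp and 1 for each of the other 7 genes. Gene expression was measured in whole bone marrow of 16 mice on 1-colour Agilent arrays, 1 array per mouse. The first group, called KO chimeras here, held 8 C57BL/6J mice that were lethally irradiated with 950 rad and given whole marrow from Adrb1tm1BkkAdrb2tm1Bkk/J donors, which lack the beta-1 and beta-2 adrenergic receptors, by retro-orbital injection. The labels give a ratio of 1:4 of donor strain to C57BL/6J for this step. The second group held 8 control mice, labelled with the same strain, the same irradiation and the same 2 to 3 months of recovery, and no donor is named for these mice. The recipients, and with them the bone cells a host keeps, were C57BL/6J in both groups, and the mice's age was not stated in the labels. The comparison therefore sets marrow holding a knockout graft against control marrow, and receptor loss, donor background and grafting cannot be told apart in it.

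Osteoblasts are the cells that build bone. Runx2 and then Sp7 commit precursors to the lineage, and the cells in turn make a collagen matrix, the phosphatase Alpl that frees phosphate for mineral, and acidic matrix proteins that bind that mineral. Cells buried in the matrix become osteocytes, which make Dmp1, Phex and Mepe and regulate phosphate and mineralisation. Sympathetic nerves reach bone and marrow, and beta adrenergic receptors on osteoblasts are known as a route by which nerves act on bone mass. Marrow taken from a bone is mostly blood-forming cells, so osteoblast transcripts in it come from few cells, and in such a bulk sample fewer cells of a type and less RNA per cell cannot be told apart.

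The probe sequences matter for this set because probes of 1 gene read different stretches of it. The stretches below are 30 bases from the 60-base probes of Runx2 and Ibsp, the genes whose probes gave the largest differences among the genes with several probes, with coordinates of mouse build mm9 from the files. Their order is that of the transcript, 5′ to 3′, and the capitals in the first mark the ATG that starts the protein made from the distal Runx2 promoter.
Runx2 A_52_P55876 (chr17:44951152-44951181, minus strand): gggactATGgcgtcaaacagcctcttcagc
Runx2 A_52_P460545 (chr17:44744955-44744984, minus strand): gcagcacgctattaaatccaaatttgccta
Runx2 A_65_P18181 (chr17:44633064-44633093, minus strand): tgattgtttttctcatttatacctacattt
Ibsp A_55_P2075485 (chr5:104739720-104739749, plus strand): tgctacagccccagagtgatttccgcaaat
Ibsp A_55_P1986813 (chr5:104740413-104740442, plus strand): ccccatgaatgatttgtctctgtgaaacat
The 3 Runx2 probes are spread along the gene. The first begins at base 192 of its transcript record and the second at base 1660, while A_65_P18181 belongs to a separate record of the class RefSeq keeps for non-coding RNA. The Ibsp probes begin at bases 1183 and 1876 of theirs. No probe of the 10 genes shared a run of 20 bases with a probe of another gene name on the array. Exon annotation of mm9 was not used here.

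Levels are given as the log2 of the spot's processed signal over the array's 75th percentile, so 0 is the 75th percentile of that array and each step of 1 is a doubling. A difference is the mean of the KO chimeras minus the mean of the controls on that scale, with the standard error (SE) of the limma fit and a p-value adjusted over all probes tested. A probe was tested if the scanner software called it well above background in 6 or more of the 8 mice of a group. Of the 15 probes, 11 passed this filter, covering 7 of the 10 genes, and 8 were well above background on all 16 arrays. Postn, Dmp1 and Phex were above background on no array. The 15 marrow identity genes (such as Mpo and Elane, of granulocyte precursors) were above background on all 16 arrays, so the tissue was marrow by its markers, with bone cell transcripts at or near the detection limit for several genes.

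Most of the bone genes did not differ detectably between KO chimeras and controls. At adjusted p under 0.05, 1 of the 11 tested probes passed, a share of 9.09%, while 23.5% of all 32689 probes tested did (11.4% higher and 12.2% lower in KO chimeras). The 1 that passed read Ibsp and was higher in KO chimeras. Before adjustment 2 of the 11 probes had p under 0.05, both of Ibsp, against 34.9% of all probes. The values of the 8 KO chimeras overlapped those of the 8 controls for all 15 probes, where 6.34% of all probes tested did not overlap. The median difference of the 11 probes was 0.26, against -0.012 over all probes, with 8 above and 3 below 0. Their SEs were wide, with a median of 0.243 against 0.138 for all probes, so differences of the size seen here mostly lay within the spread between mice.

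**Figure D1:**
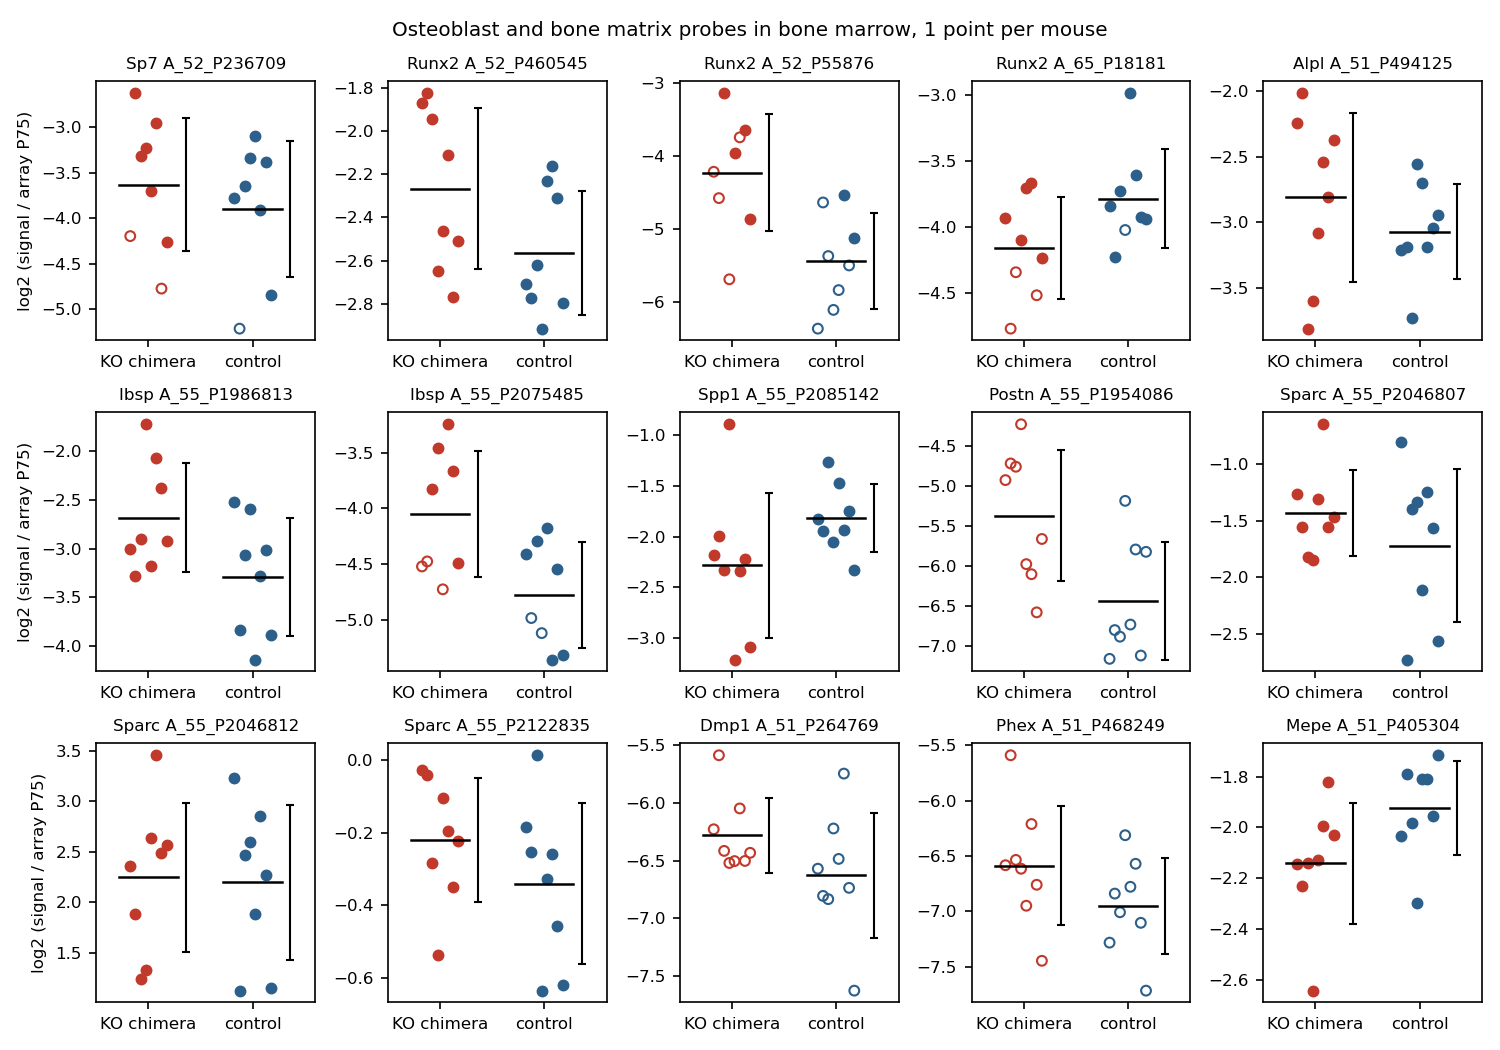
Log2 level (spot signal over the array's 75th percentile) of each of the 15 probes, 1 point per mouse, KO chimeras on the left and controls on the right of each panel; filled points are well above background, open points are not, lines are group means and bars are SD. The groups overlap in all 15 panels, and Postn, Dmp1 and Phex have open points only.

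Sp7, the zinc finger factor that acts after Runx2, was close to the detection limit. Its probe (A_52_P236709, chr15:102187692-102187751, minus strand) was above background on 6 KO chimera and 7 control arrays. Levels in KO chimeras had a lowest, median and highest value of -4.77, -3.51 and -2.63, and in controls of -5.21, -3.72 and -3.10. The groups overlapped over nearly the whole range, which spanned 5.99-fold over the 16 mice. Part of this range went with scan day. On day 1 the means were -3.03 in KO chimeras and -3.37 in controls, and on day 2 they were -4.23 and -4.44. The difference was 0.27 ± 0.34 (SE, n = 8 mice per group, limma adjusted p = 0.627, 95% interval -0.45 to 0.99). With scan day as a block in the limma fit it was 0.27 ± 0.20 (adjusted p = 0.377). The cause of the gap between scan days was not tested.

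Runx2, the factor without which no osteoblast forms, gave a different picture for each probe. The probe in the middle of the set (A_52_P460545, chr17:44744925-44744984) was above background on all 16 arrays, with a lowest, median and highest level of -2.77, -2.29 and -1.82 in KO chimeras and of -2.92, -2.67 and -2.16 in controls. KO chimeras 1, 2, 3 and 6 had the 4 highest levels, and the other 4 lay among the controls. The difference was 0.30 ± 0.16 (adjusted p = 0.202, interval -0.041 to 0.64).

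The Runx2 probe of the non-coding record (A_65_P18181, chr17:44633034-44633093) had the opposite sign. It was above background on 5 KO chimera and 7 control arrays, and its levels were -4.77, -4.16 and -3.66 at the lowest, median and highest in KO chimeras, against -4.23, -3.88 and -2.99 in controls. Control 5 stood highest and KO chimera 2 lowest, with the other mice mixed. The difference was -0.37 ± 0.18 (adjusted p = 0.151, interval -0.75 to 0.0069).

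The probe over the start codon (A_52_P55876, chr17:44951128-44951187) was too dim for the test, being above background on 4 KO chimera and 2 control arrays. Its levels in KO chimeras were -5.69, -4.08 and -3.13 at the lowest, median and highest, against -6.37, -5.44 and -4.53 in controls. KO chimeras lay higher as a group, with KO chimeras 2, 4 and 8 inside the control range. The mean difference was 1.21 (p = 0.00715 by an exact two-sided permutation test over the 16 mice), and limma with no filter on dim probes gave an adjusted p = 0.0314, where 5.82% of all probes were called higher and 5.67% lower. It was 1.204 under quantile normalization and 1.18 in the authors' values, and 0.22 with normexp background correction before quantile normalization. The 3 probes did not rise or fall together over mice (Pearson r of values less their group mean 0.289, 0.251 and -0.053 for the 3 pairs, 16 mice).

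Spots at background did not stay level between the groups. Of 11637 probes above background on no array, 91.5% had a positive difference, with a median of 0.44 and a middle range of 0.25 to 0.52. The 75th percentile by which signals were divided was 127 to 545 in KO chimeras against 231 to 558 in controls, and its part in this shift was not tested beyond the other scalings below. The array median of these probes was -7.26, -6.52 and -5.58 at the lowest, median and highest in KO chimeras, against -7.49, -6.92 and -6.25 in controls. Under quantile normalization the median difference of these probes was 0.065, and 0.014 with normexp background correction before it. Set against the array median of these dark probes, a comparison added after seeing the data, the start-codon probe of Runx2 lay 0.75 higher in KO chimeras (p = 0.12 by the same exact permutation test).

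**Figure D2:**
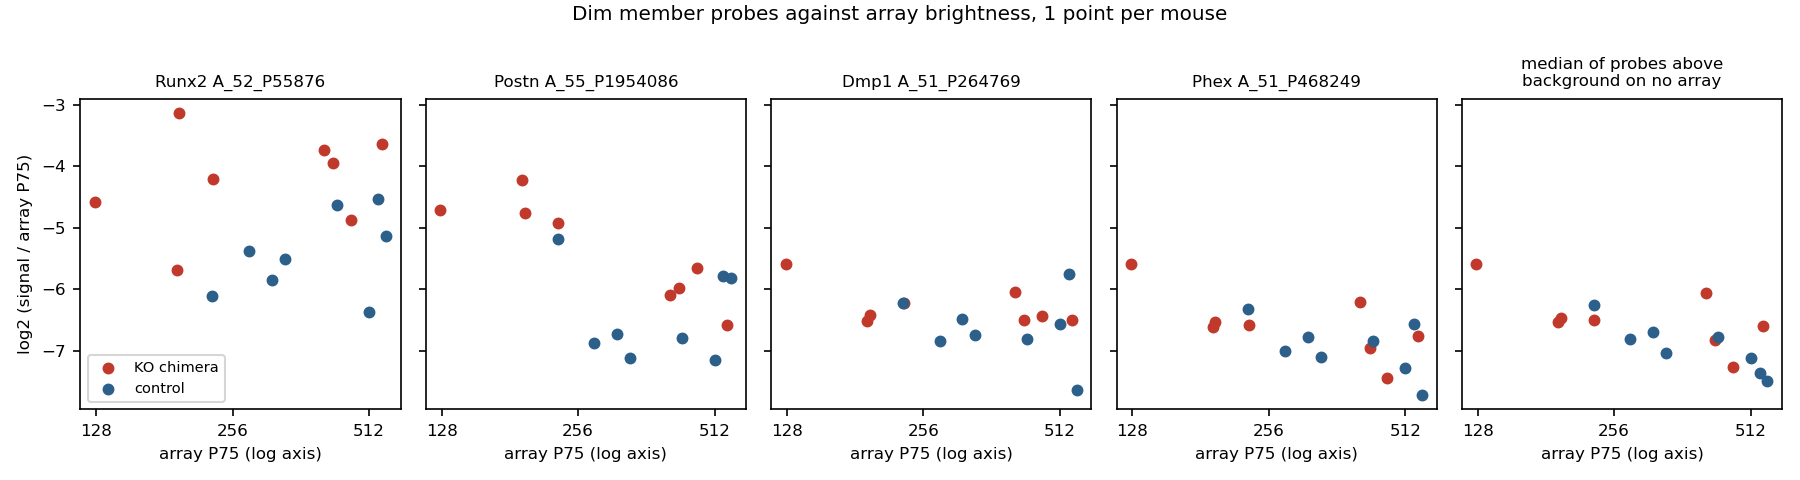
Log2 level of the 4 probes too dim for the test, and in the last panel the array median of the 11637 probes above background on no array, against the array's 75th percentile on a log axis, 1 point per mouse. Phex and Dmp1 lie mostly close to the last panel. The KO chimera array of lowest 75th percentile (127) is highest in the Phex panel at -5.59. Runx2 A_52_P55876 lies above the last panel's value of the same array in every mouse of both groups. Postn lies above it in several KO chimeras and in some controls, and close to it in the other mice.

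Alpl, the tissue-nonspecific alkaline phosphatase of the osteoblast membrane, was measured on all 16 arrays and did not pass. Its levels (A_51_P494125, chr4:137297658-137297716, minus strand) were -3.81, -2.67 and -2.02 at the lowest, median and highest in KO chimeras and -3.73, -3.12 and -2.56 in controls. KO chimeras 1, 2, 6 and 8 lay above every control, while KO chimeras 3 and 4 lay near the bottom of the set. The difference was 0.26 ± 0.24 (adjusted p = 0.488). By scan day, with 4 mice per group on each, it was 0.016 and 0.51.

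Ibsp, bone sialoprotein, an acidic matrix protein of mineralising osteoblasts, was higher in KO chimeras on both probes, and 1 passed the test. The probe that passed (A_55_P2075485, chr5:104739720-104739779, plus strand) had a lowest, median and highest level of -4.73, -4.15 and -3.24 in KO chimeras, against -5.36, -4.77 and -4.18 in controls. KO chimeras 3, 4, 6 and 7 lay above every control, and the other 4 lay within the control range. The difference was 0.73 ± 0.24, a fold of 1.65 (adjusted p = 0.0390, interval 0.21 to 1.24). It was dim, being above background on 5 KO chimera and 6 control arrays.

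The other Ibsp probe, above background on all 16 arrays (A_55_P1986813, chr5:104740413-104740472), did not pass. Its levels were -3.28, -2.91 and -1.72 in KO chimeras and -4.14, -3.17 and -2.52 in controls, again as the lowest, median and highest. KO chimeras 4, 6 and 7 were once more the highest of all mice, and controls 2, 5 and 8 the lowest. The difference was 0.61 ± 0.27, a fold of 1.53 (adjusted p = 0.118, interval 0.038 to 1.18). Both probes were higher in KO chimeras on 5 of the 5 slides that held both groups, by 0.50 to 1.48 for the first probe and by 0.28 to 0.91 for the second. By scan day the differences were 0.78 and 0.67 for the first probe and 0.71 and 0.51 for the second. Their values over mice, less the group means, correlated at r = 0.494 (permutation p = 0.061, adjusted over 7 probe pairs 0.214) and rho = 0.427 (permutation p = 0.110, adjusted 0.386), with r = 0.361 without the 2 farthest mice and r = 0.193 and 0.796 within the scan days.

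The passing call was narrow. It was lost (adjusted p 0.0657 to 0.0794) when any 1 of KO chimeras 3, 4, 6 and 7 or controls 2, 4, 6 and 8 was left out. With normexp background correction the difference was 0.16, and with the array's brightness as a covariate it was 0.70 with an adjusted p = 0.0728. The mean of the Ibsp probes differed by 0.67 ± 0.22 (adjusted p = 0.0389). Relative to the 0.44 by which dark probes moved, the part that background may play in the dim probe's difference was not tested.

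Ibsp, Mepe, Spp1 and Dmp1 are neighbours on chromosome 5. The 250 bases upstream of the annotated start of Ibsp, Mepe and Spp1 (the first of its 2 starts) are printed here from RefSeq, build GRCm38.p6, plus strand, because they are the measured genes of this neighbourhood: Ibsp had the 1 call, and Mepe and Spp1 did not pass. Capitals mark the core of the Runx2 binding motif, searched as ACCACA on both strands.
Ibsp (chr5:104299037-104299286): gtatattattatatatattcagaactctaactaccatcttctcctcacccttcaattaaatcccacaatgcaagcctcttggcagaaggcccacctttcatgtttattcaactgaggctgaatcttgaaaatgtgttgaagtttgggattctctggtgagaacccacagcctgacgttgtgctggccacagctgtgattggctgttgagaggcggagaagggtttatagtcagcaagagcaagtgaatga
Mepe (chr5:104325079-104325328): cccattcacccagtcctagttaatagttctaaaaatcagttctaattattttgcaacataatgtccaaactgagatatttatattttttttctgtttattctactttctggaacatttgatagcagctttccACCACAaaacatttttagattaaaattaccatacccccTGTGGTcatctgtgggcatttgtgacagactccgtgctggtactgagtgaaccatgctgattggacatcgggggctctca
Spp1 (chr5:104434861-104435110): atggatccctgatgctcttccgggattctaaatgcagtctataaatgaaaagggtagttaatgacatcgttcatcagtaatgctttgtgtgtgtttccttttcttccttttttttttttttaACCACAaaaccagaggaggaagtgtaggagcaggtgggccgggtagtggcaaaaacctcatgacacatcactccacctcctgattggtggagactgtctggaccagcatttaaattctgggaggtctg
The core was found in 4 of 13 upstream windows of 9 of the 10 genes, and Sp7 was not matched. Of 32851 such windows in the RefSeq table, 14.05% held it. Mepe held 2 matches, starting 118 and 80 bases before the transcription start, Spp1 held 1 at 128 bases, Runx2 held 1 at 80 bases and the second start of Dmp1 held 1 at 164 bases. The Ibsp window held none, and that says only that these letters are not in this window. The letters TATAAA, searched likewise, stood in 5 of the 13 windows and in 12.37% of all, with no overlap with the core.

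Spp1, osteopontin, an acidic protein of bone matrix that macrophages and osteoclasts also secrete, had lower values in KO chimeras but did not pass. Its levels (A_55_P2085142, chr5:104868502-104868561, plus strand) were -3.22, -2.28 and -0.89 at the lowest, median and highest in KO chimeras and -2.33, -1.88 and -1.26 in controls. KO chimera 4 was the highest of all 16 mice, while KO chimeras 5 and 8 lay farthest below the controls. The difference was -0.46 ± 0.26 (adjusted p = 0.220, interval -1.01 to 0.083). Without KO chimera 4 it was -0.66 (adjusted p = 0.0223), and with arrays weighted by their quality it was -0.84 (adjusted p = 0.00747). The cause of the move under weighting was not tested.

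Genes of the other cells that secrete osteopontin were counted beside it. Of 11 macrophage genes measured, 0 were higher and 6 lower in KO chimeras, where 10.3% of all genes were called higher and 12.1% lower. C1qc, a complement chain made by tissue macrophages, fell by 1.58 ± 0.30 (adjusted p = 0.00106) and the receptor kinase Axl fell by 1.13 ± 0.21 (adjusted p = 0.000723). The summed signal of the 11 genes, in multiples of the 75th percentile, was 18.7 to 30.6 in KO chimeras against 24.1 to 35.1 in controls. Of 13 osteoclast genes 5 were lower and 0 higher. Among them were the integrin chain Itgb3 (-1.57 ± 0.12), which megakaryocytes also express, Ckb (-0.93 ± 0.17) and the chloride transporter Clcn7 (-0.41 ± 0.083). These are values of the brightest probes, and second probes differed by -0.57 for Itgb3 and -0.65 for Ckb. Another of the 5, Atp6v0d2, was named after its values were seen. It was above background on 0 KO chimera and 6 control arrays, and so was tested only through the controls, the group in which it was high. The summed signal of the 13 genes was 99.2 to 262 in KO chimeras against 127 to 259 in controls, and Calcr was above background on no array. The part of these cells in the Spp1 values was not tested.

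Mepe, a phosphate-regulating matrix protein of osteocytes, did not pass the test, and its values were lower in KO chimeras. Its levels (A_51_P405304, chr5:104767416-104767475, plus strand) were -2.64, -2.13 and -1.82 at the lowest, median and highest in KO chimeras and -2.30, -1.88 and -1.72 in controls. KO chimera 4 was the lowest mouse, and KO chimeras 1, 2, 3 and 5 lay below 7 of the 8 controls. The difference was -0.22 ± 0.11 (adjusted p = 0.171, interval -0.45 to 0.014), with -0.24 and -0.19 on the 2 scan days.

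Dmp1, a mineral-nucleating protein of osteocytes, and Phex, a membrane peptidase that restrains the phosphate hormone Fgf23, gave no measurable signal. Dmp1 (A_51_P264769, chr5:104642918-104642977) stood at -6.52, -6.42 and -5.59 at the lowest, median and highest in KO chimeras and at -7.63, -6.65 and -5.75 in controls, a difference of 0.35 (exact permutation p = 0.144). Phex (A_51_P468249, chrX:153596731-153596790) stood at -7.45, -6.60 and -5.59 in KO chimeras and at -7.72, -6.92 and -6.31 in controls, a difference of 0.37 (exact permutation p = 0.160). Both differences are near the 0.44 by which the dark probes moved. Relative to the array median of those probes they were -0.11 for Dmp1 and -0.096 for Phex (exact permutation p = 0.693 and 0.696).

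Postn, periostin, a matrix protein of periosteum and of fibroblasts, was also above background on no array, though its values in KO chimeras were higher. Levels of its probe (A_55_P1954086, chr3:54194840-54194899) were -6.57, -5.29 and -4.23 at the lowest, median and highest in KO chimeras, against -7.15, -6.76 and -5.18 in controls. KO chimeras 1 to 4 lay above every control, and the other 4 lay among them. The difference was 1.07 (exact permutation p = 0.0182), and limma with no filter gave an adjusted p = 0.0713. Relative to the dark probes it was 0.60 (exact permutation p = 0.169). Under quantile normalization it was 0.89, and 0.15 with normexp background correction before it.

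**Figure D3:**
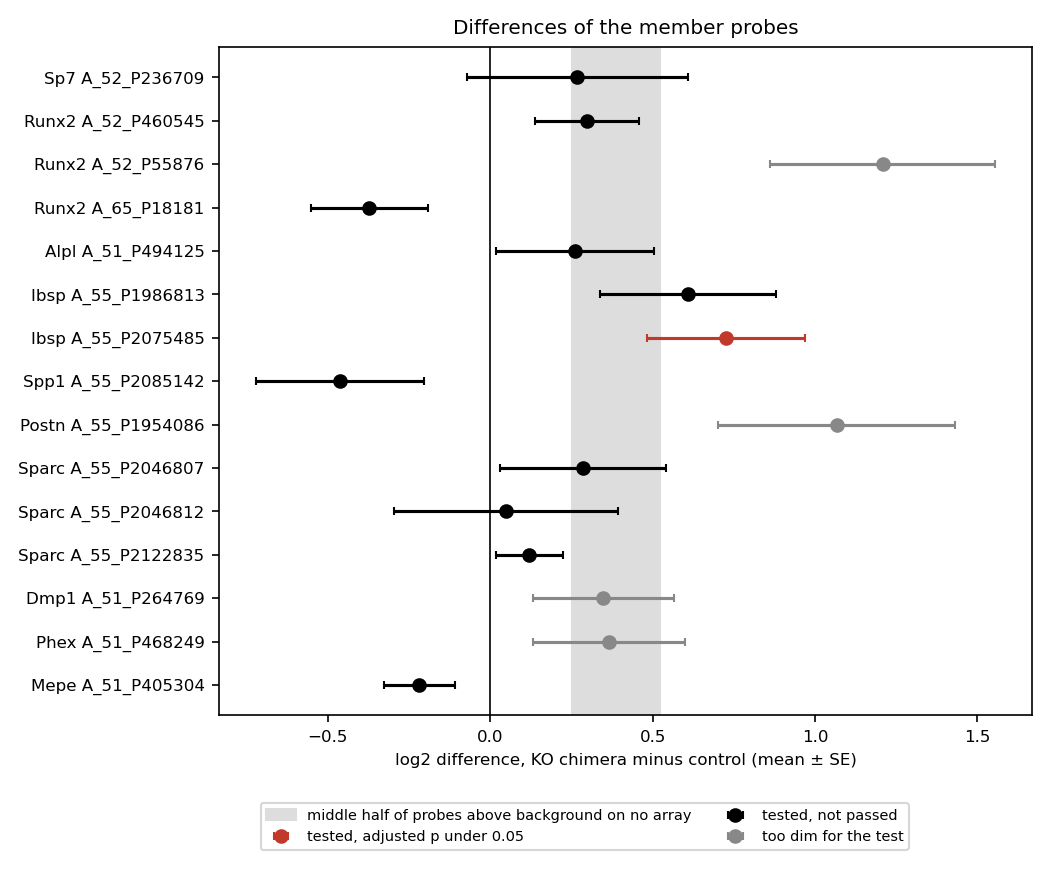
Difference of each probe (KO chimera minus control, log2) with its SE from limma, using the fit without a filter for the 4 dim probes in grey. The grey band marks the middle range (0.25 to 0.52) of the probes above background on no array; among the 11 tested probes Ibsp A_55_P2075485 (0.73) is the 1 that passed, while in the fit without a filter Runx2 A_52_P55876 passed (adjusted p = 0.0314) and this Ibsp probe did not (adjusted p = 0.0727), and Spp1, Mepe and Runx2 A_65_P18181 lie below 0.

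Sparc, osteonectin, a collagen-binding matrix protein that platelets also store, varied widely between mice and did not pass between groups. Its main probe (A_55_P2046812, chr11:55208939-55208998, minus strand) was read at 1.24, 2.42 and 3.46 at the lowest, median and highest in KO chimeras and at 1.12, 2.37 and 3.23 in controls. The groups spanned the same range, 5.03-fold from the lowest to the highest of the 16 mice. The difference was 0.049 ± 0.34 (adjusted p = 0.941), and its 95% interval, -0.68 to 0.78, leaves room for a change of either sign.

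A second Sparc probe downstream (A_55_P2046807, chr11:55208002-55208061) followed the first from mouse to mouse. Its levels were -1.85, -1.51 and -0.64 in KO chimeras and -2.73, -1.48 and -0.80 in controls (lowest, median, highest), a difference of 0.29 ± 0.26 (adjusted p = 0.468). Over the 16 mice, less their group means, the 2 probes correlated at r = 0.935 and rho = 0.918 (permutation p = 1e-05 for each, the smallest that the permutations can give, adjusted over 7 pairs 7e-05). Without the 2 farthest mice r was 0.910, and within the scan days it was 0.959 and 0.970. KO chimera 6 and control 1 were highest on both probes, and controls 2 and 8 lowest on both. These 2 of the 3 Sparc probes thus ranked the mice much alike.

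**Figure D4:**
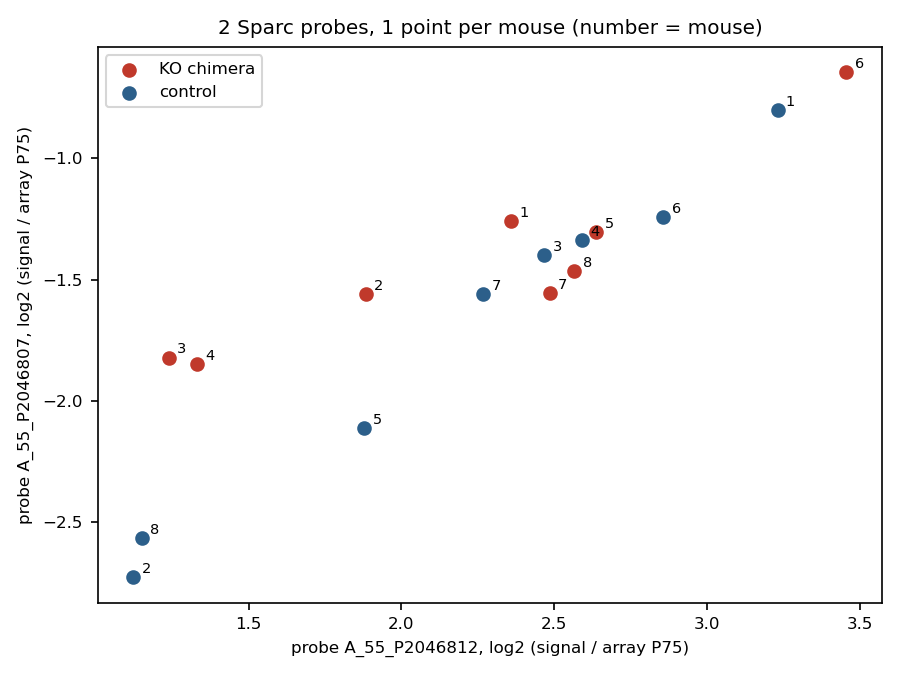
Log2 levels of Sparc probes A_55_P2046812 (x axis) and A_55_P2046807 (y axis), 1 point per mouse with its number in the group. The 2 probes rise together (r = 0.935 after group means are removed), and the ranges of KO chimeras and controls overlap on both axes. At the low end of the x axis, controls 2 and 8 have y values of -2.73 and -2.57, and KO chimeras 3 and 4 of -1.82 and -1.85. These controls were read on scan day 2 and these KO chimeras on scan day 1, so group and scan day cannot be told apart for them.

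The third Sparc probe (A_55_P2122835, chr11:55207772-55207831) did not follow them. Its levels were -0.54, -0.21 and -0.026 in KO chimeras and -0.64, -0.29 and 0.013 in controls, a range of 1.57-fold over all mice. It differed by 0.12 ± 0.10 between groups (adjusted p = 0.449). Its correlation with the other Sparc probes over mice was 0.353 and 0.343 (permutation p = 0.199 and 0.246). Which transcripts it reads beyond its record was not tested.

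Genes of megakaryocytes, the precursors of platelets, were called where Sparc did not pass. Of 15 megakaryocyte genes measured, 10 were lower and 1 higher in KO chimeras, where 12.1% of all genes were called lower and 10.3% higher. The median difference of the 15 was -1.02. The 1 that was higher, named after its values were seen, was Tubb1 (1.57 ± 0.31, adjusted p = 0.00151). The platelet receptor genes Clec1b (-2.87 ± 0.22, adjusted p = 5.46e-08) and Gp1ba (-1.30 ± 0.19, adjusted p = 7.81e-05) were among the lower. Over its probes Clec1b differed by -2.87 to -0.76. Gp6, another of the lower, was above background on 5 KO chimera and 8 control arrays. It was thus tested only through the controls, the group in which it was high. The summed signal of the 15 genes was 24.5 to 57.2 in KO chimeras against 45.8 to 85.2 in controls. Their part in the Sparc values was not tested.

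The 7 measured genes did not form 1 profile across mice. By the brightest tested probe of each gene, correlation with the mean of the other 6 was 0.45 for Sp7, 0.34 for Sparc, 0.22 for Ibsp, 0.21 for Runx2, 0.057 for Spp1, 0.0052 for Alpl and -0.42 for Mepe (values less group means, 16 mice on 16 arrays, a description with no test). The genes closest to the mean of the 7, among 22285 candidates, were Tubb6, a tubulin chain (r = 0.878), Col1a1, the main collagen chain of bone (r = 0.868), and Mfsd3, a membrane transporter family gene (r = 0.863). A further 2 probes without a gene symbol had r = 0.843 and 0.835. These r values are the highest among the 22285 candidates, and how high the best would be by chance was not tested. The mean of the 7 was taken without scaling, so genes that vary more between mice weigh more in it. Col1a1 itself differed by 0.083 ± 0.37 between groups (adjusted p = 0.904), Mfsd3 by 0.20 ± 0.086 (adjusted p = 0.104) and Tubb6 by 0.91 ± 0.11 (adjusted p = 7.07e-06).

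Of 12 other regulators of the osteoblast lineage that were measured, 3 were higher and 0 lower in KO chimeras, where 10.3% of all genes were called higher and 12.1% lower. Hey1 and Dlx6 entered the test only through the KO chimeras, the group in which they were high, so nothing is read from this count. The list's median difference was 0.12, against -0.019 over all genes. Hey1, a Notch and BMP target that restrains Runx2, rose by 1.63 ± 0.20 (adjusted p = 1.74e-05) but was above background on 8 KO chimera and only 2 control arrays. Id3, an inhibitor of differentiation induced by BMPs, rose by 0.68 ± 0.22 (adjusted p = 0.0360). Dlx6, a homeobox factor of skeletal development, rose by 0.89 ± 0.30 (adjusted p = 0.0363, above background on 7 KO chimera and 5 control arrays). Twist1 was above background on no array.

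Ligands and receptors that act on osteoblasts went both ways. Of 20 measured, 3 were higher, 2 lower and 15 did not pass, with a median of -0.057. Over all genes 10.3% were called higher and 12.1% lower. Bmp4, a bone morphogenetic protein, rose by 1.43 ± 0.17 (adjusted p = 7.07e-06), and Bmpr1a, a receptor for it, rose by 1.48 ± 0.24 (adjusted p = 0.000255). The Wnt co-receptor Lrp6 fell by 0.34 ± 0.093 (adjusted p = 0.0125) on its brightest probe, while its other probe differed by 0.17 and did not pass. The other calls, named after their values were seen, were Wnt10b (0.72 ± 0.22) and Fgfr3 (-0.45 ± 0.15).

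Secreted inhibitors of bone formation or mineral were mostly too dim. Only 4 of 12 were measured, and all 4 were called, 1 higher and 3 lower, where 10.3% of all genes were called higher and 12.1% lower. Nog, which binds and blocks BMPs, rose by 0.65 ± 0.16 (adjusted p = 0.00744). Fgf23, the phosphate-lowering hormone, fell by 0.47 ± 0.12 (adjusted p = 0.0115) and Sfrp4, a secreted Wnt antagonist, by 0.91 ± 0.25 (adjusted p = 0.0142, above background on 6 KO chimera and 8 control arrays). The fourth, Sostdc1, differed by -1.16 and was named after its values were seen. It was above background on 1 KO chimera and 8 control arrays, and so was tested only through the controls, the group in which it was high. Sost and Dkk1, the osteocyte Wnt inhibitors, were above background on no array, as were Dkk2 and Sfrp2.

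Mineralisation genes gave 1 call among 9 measured, where 10.3% of all genes were called higher and 12.1% lower. Slc20a1, a sodium-phosphate transporter of many cells, rose by 0.71 ± 0.12 (adjusted p = 0.000366), with 0.90 on its second probe. Of 18 measured bone matrix genes, 3 were higher, 1 lower and 14 did not pass, with a median of 0.13. Thbs4, a thrombospondin, rose by 1.64 ± 0.31 (adjusted p = 0.00104, above background on 8 KO chimera and 4 control arrays, and so tested only through the KO chimeras), and the proteoglycan Bgn rose by 0.64 ± 0.21 (adjusted p = 0.0352). The matrix protease Mmp14 fell by 1.06 ± 0.25 (adjusted p = 0.00458). Bglap (osteocalcin), a product particular to osteoblasts, did not pass at 0.43 ± 0.29, and its near-identical copies Bglap2 and Bglap3 gave 0.15 and -0.032. The collagen chain Col1a2 did not pass either, at 0.11 ± 0.37. Bglap and Col1a2 were named after their values were seen.

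Of 7 measured osteocyte genes, 2 were higher, 1 lower and 4 did not pass, where 10.3% of all genes were called higher and 12.1% lower. The lower one was Fgf23, the hormone given above, whose probe had a mean level of 4.46 in KO chimeras and 4.93 in controls. Which cells gave that signal was not tested. Of the higher ones, Cd44, a hyaluronan receptor of most leukocytes, differed by 0.57 on its brightest probe and by -1.05 to 1.00 over its probes, and Hyou1, a chaperone of many cell types, rose by 0.43 ± 0.15 (adjusted p = 0.0421). Stromal genes, 11 measured, gave 2 higher and 1 lower. The niche chemokine Cxcl12 rose by 0.62 ± 0.21 (adjusted p = 0.0396), with 0.90 on its second probe, and Cxcl14 by 0.96 ± 0.27 (adjusted p = 0.0160). Vcam1, which macrophages also carry, fell by 0.58 ± 0.16 (adjusted p = 0.0146) on its brightest probe, while its second probe differed by 0.24 and did not pass (adjusted p = 0.384). Summed stromal signal was 22.5 to 30.4 in KO chimeras against 20.2 to 30.3 in controls.

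Lists of neighbouring tissues are set against the same 10.3% higher and 12.1% lower over all genes. Of 7 periosteal and fibroblast genes 1 was higher, the proteoglycan Dcn (0.82 ± 0.29, adjusted p = 0.0451), and 1 lower, Thy1 (-1.20 ± 0.16, adjusted p = 2.9e-05), which lymphocytes also carry. Of 6 cartilage genes 0 were higher and 1 was lower, Chad (-0.39 ± 0.088, adjusted p = 0.00405), with Sox9 and Col10a1 above background on no array. Muscle, a carry-over tissue in bone dissection, had 6 genes measured with 1 higher, Pvalb (0.62 ± 0.12, adjusted p = 0.00155), and Myh1, Myh2, Mb and Des above background on no array. Endothelial genes, 10 measured, gave 1 higher, Stab2 (4.99 ± 0.22, adjusted p = 3.11e-11), and 3 lower. Among the lower was Vwf (-1.28 ± 0.19, with -0.76 on its second probe), which was also counted in the megakaryocyte list. The others that were lower were Cdh5 and, named after its values were seen, Flt4. Cdh5 was above background on 5 KO chimera and 8 control arrays, and Flt4 on 0 and 6. Both were thus tested only through the controls, the group in which they were high. Among the 15 marrow identity genes 1 was higher, Vpreb1 of B cell precursors (1.36 ± 0.37, adjusted p = 0.0125), and 0 were lower. These lists were counted and not tested as sets.

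**Figure D5:**
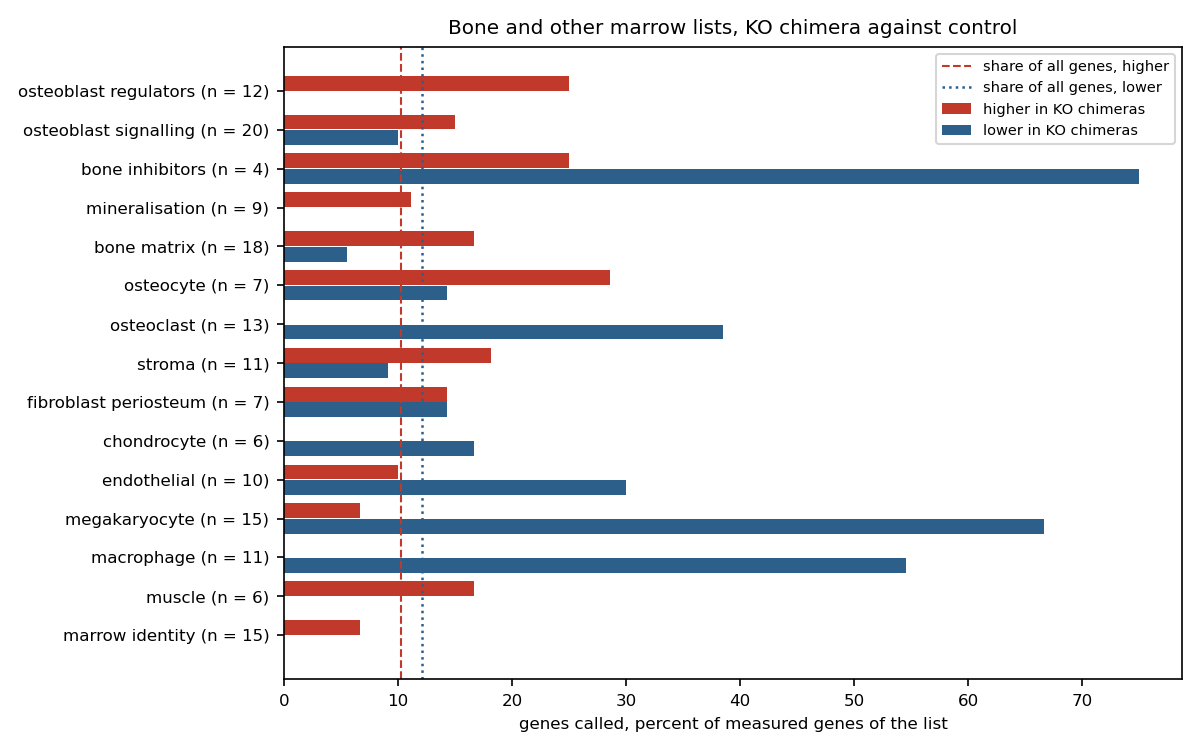
Share of measured genes of each list called higher (red) or lower (blue) in KO chimeras, in percent, with the number measured beside the list's name. The dashed and dotted lines mark the shares over all genes, 10.3% higher and 12.1% lower. Lower calls were 3 of 4 in the bone inhibitor list, 10 of 15 in the megakaryocyte list and 6 of 11 in the macrophage list. Several lists hold genes tested only through the group in which they were high, such as Sostdc1 and Gp6. The lists are therefore not ranked by these counts.

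The targeted gene was read by 2 probes. Adrb1 was above background on all 16 arrays by 1 of them, at -2.99 to -2.19 in KO chimeras and -2.58 to -2.34 in controls, with a difference of -0.00041 ± 0.11 (adjusted p = 0.999). The dimmer probe, above background on 7 KO chimera and 6 control arrays, differed by 0.95 ± 0.30 (adjusted p = 0.0277). The labels do not place the deletion relative to these probes, and the genotype was not checked by them. Each array had 27755 to 37087 probes well above background in KO chimeras, against 29292 to 38743 in controls, and precision throughout is limited by having 8 mice in a group.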

How the data were processed

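Total RNA of 16 bone marrow samples was read with Cy3 on 1-colour Agilent arrays, per the labels' protocols. The deposited scanner files hold a linear spot intensity from which the scanner software had subtracted background, per the file headers. That software was Feature Extraction, version 10.1.1.1 in the headers and 10.7 in the submitters' processing notes. The authors' deposited value table holds log2 values that correlate with the scanner signal of each array at r = 0.991 or more, with column medians near 5.00. Its centring was not stated.

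Outlier-flagged and control spots were left out, and each processed signal was taken to log2 over its array's 75th percentile. The filter (well above background in 6 or more of the 8 mice of a group) kept 32693 of 55681 probes. Of these, 32689 with at least 3 values per group entered limma 3.58.1 (R 4.3.3, lmFit, eBayes). Its two-sided p-values were adjusted by Benjamini-Hochberg, and a call needed an adjusted p under 0.05. The fit was tested on simulated data. Probes too dim for it were compared by an exact permutation test over all splits of the mice, 8 against 8. Lists were read from the brightest kept probe per gene, naming up to 3 calls of smallest p per list, or the 2 genes of smallest p where none was called. Genes most alike were the 5 with the highest Pearson r. Correlations between probes used values less group means and 100000 permutations within groups, and were added to the planned comparisons.

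Members and lists were chosen with earlier results of these data known. The arrays came from 6 slides, of which 5 held both groups, and from 2 scan days of 4 mice per group. Each sample is labelled as a separate animal. Replicate numbers did not pair the mice (r of same-numbered mice -0.19 to 0.19, 1 of 8 mice closest to its own number). Alternatives were other normalizations, the authors' values, other filters, blocks for slide, scan day or replicate number, array weights, a variance trend, brightness as a covariate and leaving out each mouse.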

Additional observations from a re-analysis of the deposited data

How the results depend on the processing

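The total of 7696 probes called was 2453 within scan day 1, 3459 within scan day 2 and 4430 at adjusted p under 0.01, and ran from 6604 to 7947 when 1 mouse was left out. The number of bone probes called was 1 (1 higher, 0 lower). It was 0, with 0 higher, under normexp background correction, with probes above background on all 16 arrays, with probes brighter than the median probe, within either scan day, with the brightest probe per gene, with a variance trend, with array brightness as a covariate and at adjusted p under 0.01. With array weights it was 1 (0 higher, 1 lower, Spp1), and with 1 mouse left out 0 to 1 were called, 0 to 1 higher and 0 to 1 lower, the lower call being Spp1 without KO chimera 4. With no filter 1 probe was called, Runx2 A_52_P55876, and Ibsp A_55_P2075485 had an adjusted p = 0.0727. With the replicate block 2 were called: Ibsp A_55_P1986813 higher (adjusted p = 0.0334) and Runx2 A_65_P18181 lower (adjusted p = 0.0314), and Ibsp A_55_P2075485 was lost (adjusted p = 0.0825). Since the numbers do not pair the mice, this is given only here. The cause of these moves was not tested. Quantile normalization, the authors' values, slide and scan day as blocks left the Ibsp probe called. Probes close to background limit the set: Postn, Dmp1 and Phex have only a bound, and 3 of the 11 tested probes were above background on some arrays only.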
